A study of Mus musculus with 9 samples.

Results

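The genes described here are 10 genes of eosinophils and basophils, the least abundant granulocytes of blood: Siglecf, Ccr3, Prg2 and Epx for eosinophils and Cpa3, Mcpt8, Fcer1a, Ms4a2, Hdc and Gata2 for basophils. They were found by symbol in a matrix of 20926 genes, and all 10 had a row. Of these, 9 passed the filter for the test, a mean of at least 0.1 rescaled FPKM over the 9 libraries, and Epx did not.

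Eosinophils carry Siglec-F and the eotaxin receptor CCR3 on their surface and store cationic proteins, among them major basic protein and eosinophil peroxidase, in their granules. Basophils bind IgE through the high-affinity receptor FcεRI and release histamine and proteases when antigen crosslinks it. Both cells arise in the bone marrow from precursors that use GATA transcription factors, and both circulate in small numbers.

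The study asked how local sub-terahertz irradiation of arthritic joints alters blood leukocytes in collagen-induced arthritis (CIA), a mouse model of rheumatoid arthritis raised by immunization with type II collagen. RNA-seq of blood was made from male DBA/1 mice, with 3 libraries in each of 3 groups. The labels give an age of 7 weeks, which in the study is the age at grouping. Immunization, booster and irradiation followed, so the blood was taken at a later age. Ctrl mice were not irradiated. CIA mice carried the arthritis and were not irradiated, and CIA+THz mice carried the arthritis and received 0.1 THz for 30 min a day on the swollen ankles over 14 days, under isoflurane. Whether the other groups were anaesthetised is not given in the sources used here. Arthritis was thus shared by CIA and CIA+THz, and irradiation and anaesthesia cannot be told apart. Values are FPKM, which are levels per transcript length, rescaled by 1 factor per library. The sample label names blood leukocytes, but the erythroid gene Alas2 alone held 11.4% to 16.7% of the summed FPKM, so red cell RNA was present in every library. The leukocyte gene Ptprc had 92.7 to 150 rescaled FPKM in Ctrl, 66.8 to 141 in CIA and 136 to 143 in CIA+THz, and the 2 lowest libraries were CIA replicates 1 and 2. The read depth behind the FPKM is unknown. The labels do not say that the libraries are separate animals, and p-values measure the spread between these libraries.

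Promoters are described first, since GATA factors bind short A/T-flanked GATA motifs and Gata2 is itself among the genes. In RefSeq promoters of 300 bases (GRCm38.p6; 250 bases before to 50 after the start site), the motifs AGATAA and TGATAA were searched on both strands. They differ in their first letter only, and no matches overlapped in the promoters of these genes. Either motif was in 5 of the 10 promoters found for 9 of the genes, and in 18.6% of all 32851 promoters. Promoters with a match were those of Siglecf, Ccr3, Cpa3, Fcer1a and Ms4a2. Those of Epx, Mcpt8 and Hdc and both promoters of Gata2 held none, and Prg2 had no entry. The Hdc promoter lies inside the gene as GENCODE places it, up to chr2:126619299, so the bases around that end were not searched. The 4 sequences below belong to the basophil genes with a match and to Hdc, picked because its values ran differently. Mcpt8 and Gata2, also without a match, are not shown. Gata2 was lowest in the CIA libraries, as Cpa3 was. Whether the values relate to the presence of a match was not tested. Capitals mark the motif or its reverse complement, each sequence reads 5′ to 3′ in the direction of transcription, and a match is a description of these letters only.
Cpa3 promoter, minus strand, chr3:20242132-20242431: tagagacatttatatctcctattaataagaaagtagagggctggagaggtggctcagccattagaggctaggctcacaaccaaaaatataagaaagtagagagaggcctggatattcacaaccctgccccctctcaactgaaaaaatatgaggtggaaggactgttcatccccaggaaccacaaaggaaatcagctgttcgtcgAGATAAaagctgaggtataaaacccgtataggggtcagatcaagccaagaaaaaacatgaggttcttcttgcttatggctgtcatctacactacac
Fcer1a promoter, minus strand, chr1:173227180-173227479: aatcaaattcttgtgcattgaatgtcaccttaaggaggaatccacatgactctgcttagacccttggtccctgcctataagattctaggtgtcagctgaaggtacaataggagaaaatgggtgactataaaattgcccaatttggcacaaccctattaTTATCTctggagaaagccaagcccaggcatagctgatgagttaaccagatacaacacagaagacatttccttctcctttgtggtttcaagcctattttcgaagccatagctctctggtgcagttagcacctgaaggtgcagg
Ms4a2 promoter, minus strand, chr19:11623670-11623969: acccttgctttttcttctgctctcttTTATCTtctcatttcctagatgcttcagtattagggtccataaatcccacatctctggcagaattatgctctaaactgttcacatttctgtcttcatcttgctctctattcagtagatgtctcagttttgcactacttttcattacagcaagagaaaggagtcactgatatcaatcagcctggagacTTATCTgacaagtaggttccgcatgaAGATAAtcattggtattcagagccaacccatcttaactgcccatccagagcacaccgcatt
Hdc promoter, minus strand, chr2:126618629-126618928: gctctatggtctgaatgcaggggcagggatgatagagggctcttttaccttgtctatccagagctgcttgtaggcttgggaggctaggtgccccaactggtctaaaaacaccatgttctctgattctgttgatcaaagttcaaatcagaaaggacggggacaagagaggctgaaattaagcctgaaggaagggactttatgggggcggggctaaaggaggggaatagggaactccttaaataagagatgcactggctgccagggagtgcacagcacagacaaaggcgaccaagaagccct
The match of Cpa3 began at -46 from the start site and that of Fcer1a at -92. Ms4a2 held 3 matches, at -224, -37 and -11.

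The levels of the 10 genes spanned several orders of magnitude. Hdc, which encodes the histamine-forming enzyme histidine decarboxylase, had a mean of 557 rescaled FPKM over the 9 libraries, at percentile 99.1 of the 12366 genes tested. Ms4a2 followed at 24.6 and Gata2 at 11.4. Ccr3 had 8.95, Siglecf 7.12, Cpa3 6.06, Mcpt8 5.27 and Fcer1a 3.11 rescaled FPKM. Prg2 and Epx closed the order with 0.192 and 0.0952. Every library of Hdc was above every library of Ms4a2, and every library of Fcer1a was above every library of Prg2. All other neighbours in the order had ranges that overlapped over the 9 libraries. Within a library, Ms4a2 was above Gata2 in 9 of 9 and Ccr3 above Siglecf in 8 of 9, while Siglecf was above Cpa3 in 5 of 9 and Cpa3 above Mcpt8 in 6 of 9.

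**Figure D1:**
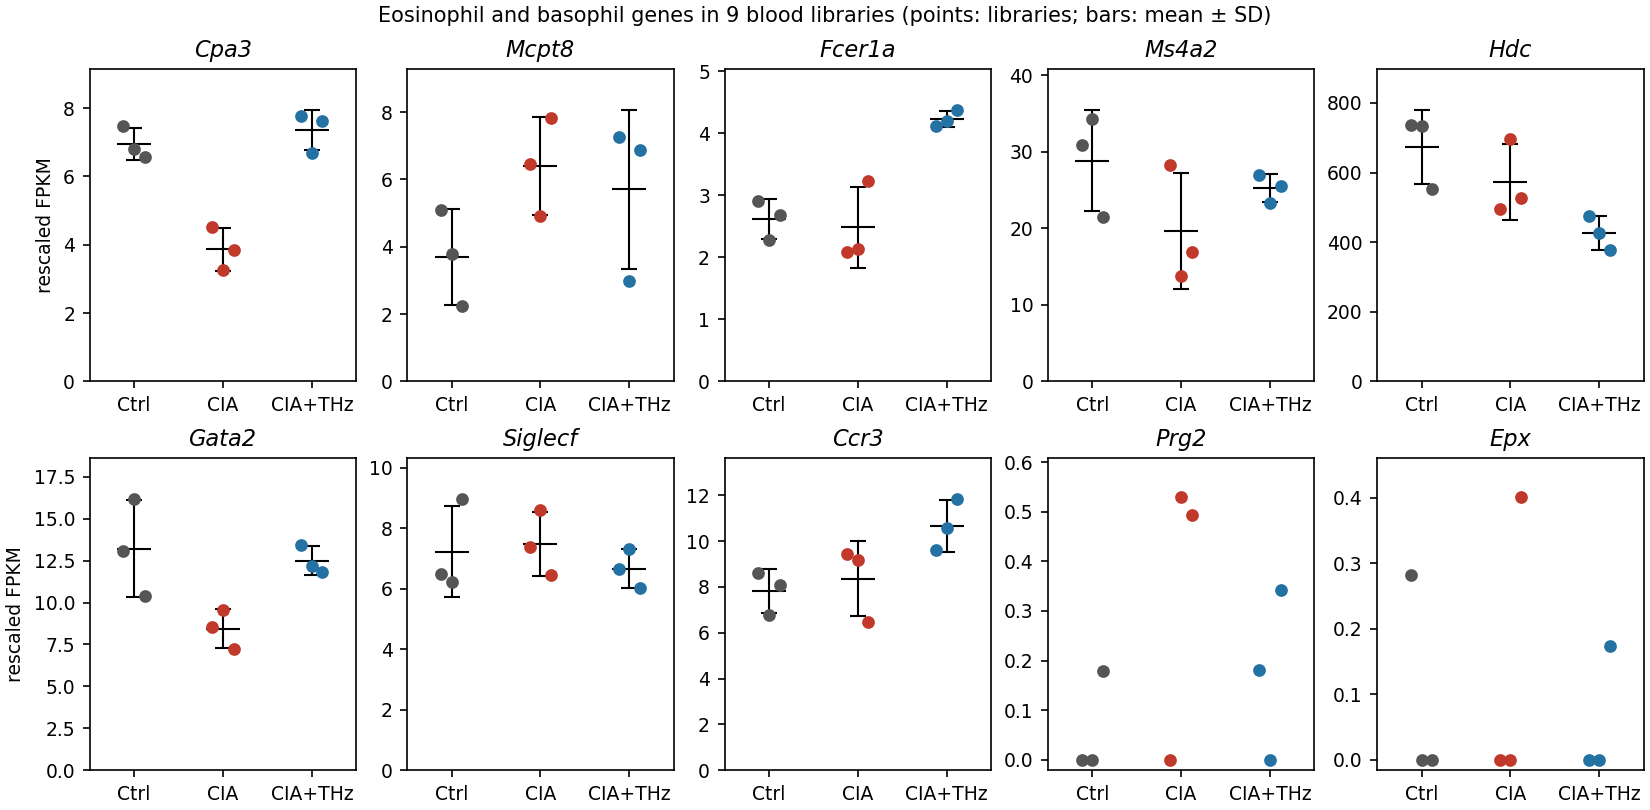
Rescaled FPKM of each of the 10 genes on the y axis, from 0, for the Ctrl, CIA and CIA+THz libraries on the x axis. Points are libraries and bars give the mean ± SD of 3 libraries; Prg2 and Epx have no bars because several libraries are listed at 0. Cpa3 and Gata2 sit lowest in CIA, Fcer1a and Ccr3 highest in CIA+THz, and Hdc lowest in CIA+THz.

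Genes that define these cells were read for detection, which in bulk blood does not identify the cells that made the RNA. Of the basophil genes, all 6 were above 0 in all 9 libraries, as was Cd200r3, an activating receptor of mouse basophils. Of the eosinophil genes, Siglecf and Ccr3 were above 0 in all 9 libraries, while the granule genes Prg2 and Epx were listed at 0 in 4 and 6 libraries. Mast cells share Cpa3, Hdc, Fcer1a, Ms4a2 and Gata2 with basophils, so 9 mast cell genes were read beside them. Mcpt1, Tpsab1 and Mrgprb2 were listed at 0 in all 9 libraries, and Mcpt4, Tpsb2 and Mrgprb1 in 8 of 9. Cma1, the mast cell chymase, was above 0 in all 9 libraries, at 0.239 to 1.12 rescaled FPKM, and the protease gene Mcpt2 in 7 of 9, at up to 2.11. These and Kit were the 3 genes abundant enough to be tested. The summed level of the list was 3.82 to 9.47 rescaled FPKM in Ctrl, 3.12 to 4.54 in CIA and 2.48 to 6.84 in CIA+THz, of which Kit, which progenitors also express, had 1.92 to 6.98 over the 9 libraries.

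In CIA against Ctrl, Cpa3 fell and Mcpt8 rose, while the other 7 genes tested did not pass the criterion of the study, an unadjusted p under 0.05 with an absolute log2 fold change above 0.67. Thus 2 of 9 were called, against 9.04% of all genes tested. Of these, 1 was higher, against 4.79% of all genes, and 1 lower, against 4.25%. No library overlapped between the groups for 2 genes that were lower, Cpa3 and Gata2, where 11.8% of all genes showed this. The 9 genes had a median log2 fold change of -0.10 and all genes tested one of -0.01. For the 6 basophil genes it was -0.41, with 5 of 6 below 0.

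In CIA+THz against CIA, Cpa3 and Fcer1a were called higher and none of the 9 was called lower, though 4 had a log2 fold change below 0. The 2 of 9 called compare with 4.54% of all genes tested, 2.94% higher and 1.6% lower. Groups did not overlap for 4 genes that were higher, Cpa3, Fcer1a, Gata2 and Ccr3, against 9.38% of all genes, and for 1 that was lower, Hdc, against 10.2%. The 9 genes had a median log2 fold change of 0.36 and the 6 basophil genes one of 0.50, against 0.03 for all genes tested. This comparison shares its CIA libraries with the one before, so that high or low CIA libraries enter both.

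In CIA+THz against Ctrl, Fcer1a was called higher and none of the 9 was called lower, though 4 had a log2 fold change below 0. That is 1 of 9 called, against 7.88% of all genes tested, 4.64% higher and 3.24% lower. Groups did not overlap for Fcer1a and Ccr3, which were higher, and for Hdc, which was lower, where 11.9% and 12% of all genes did so. The medians were 0.08 for the 9 genes and 0.04 for all genes tested.

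Across the 3 groups, 4 of the 9 genes, Cpa3, Hdc, Gata2 and Fcer1a, had an unadjusted p under 0.05, against 21.3% of all genes. After Benjamini-Hochberg adjustment of the limma test over all genes, Cpa3 alone stayed under 0.05 (adjusted p = 0.0401), as 2.53% of all genes did. In the pairwise comparisons 0 of the 9 genes had an adjusted p under 0.05 by limma. An unadjusted p under 0.05 was found for 3 of 9 genes in CIA against Ctrl (17.3% of all genes), 4 of 9 in CIA+THz against CIA (13.2%) and 3 of 9 in CIA+THz against Ctrl (18.1%). When the adjusted p was required, the criterion called 0.154% of all genes in CIA against Ctrl and 0.105% in CIA+THz against Ctrl. It called 0 genes in CIA+THz against CIA.

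**Figure D2:**
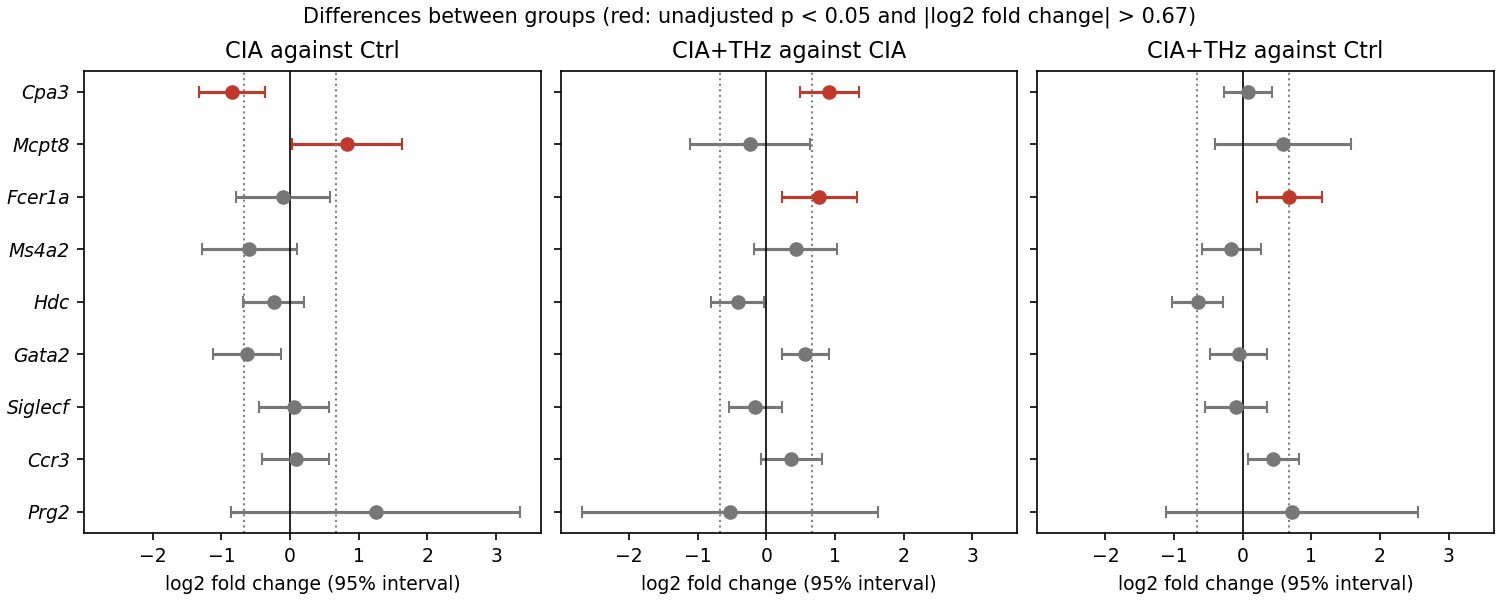
log2 fold change of each of the 9 genes tested on the x axis, with its 95% interval from limma, in the 3 pairwise comparisons. Dotted lines mark 0.67 in either direction and red points passed the criterion of the study. Cpa3 lies at -0.84 in CIA against Ctrl and at 0.92 in CIA+THz against CIA, and the interval of Prg2 is the widest in each comparison.

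Cpa3 encodes mast cell carboxypeptidase A, a granule protease that basophils and their precursors also make. The gene lies on chr3:20215620-20242181 (GRCm38, minus strand) with 11 exons and contains the microRNA gene Mir7007 on the same strand. Its level was 7.49, 6.81 and 6.58 rescaled FPKM in Ctrl, 4.52, 3.26 and 3.83 in CIA, and 7.77, 6.68 and 7.62 in CIA+THz. All 3 CIA libraries were below all 6 others, and the Ctrl and CIA+THz libraries overlapped. The log2 fold change was -0.84 in CIA against Ctrl (SE 0.21, unadjusted p = 0.00436, limma with Benjamini-Hochberg adjusted p = 0.122). It was 0.92 in CIA+THz against CIA (SE 0.18, unadjusted p = 0.00153, limma with Benjamini-Hochberg adjusted p = 0.197). CIA+THz against Ctrl gave 0.08, with a 95% interval from -0.27 to 0.43. Both calls of Cpa3 stood in all 6 fits that left out 1 library. In bulk blood, fewer cells of a type and less RNA per cell cannot be told apart. Genes of T and NK cells moved alongside: in CIA against Ctrl 7 of 7 T cell genes and 5 of 5 NK cell genes were lower, 1 and 3 of them called, and in CIA+THz against CIA all 12 were higher, 1 of each list called. Of all genes, 4.25% were called lower in CIA against Ctrl and 2.94% higher in CIA+THz against CIA. The summed NK cell genes ran from 138 to 178 rescaled FPKM in Ctrl, 49.8 to 112 in CIA and 91.0 to 144 in CIA+THz. The summed T cell genes ran from 181 to 231, 153 to 193 and 180 to 227 in the same groups. None of these 12 genes was listed at 0 throughout, and their part in the Cpa3 values was not tested.

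Mcpt8 encodes a granzyme-like serine protease that marks mouse basophils, and it did not follow Cpa3. The gene lies on chr14:56082166-56085273 (GRCm38, minus strand) with 5 exons and contains Mir6949 on the same strand. Its level was 5.09, 3.77 and 2.23 rescaled FPKM in Ctrl, 6.47, 4.92 and 7.84 in CIA, and 7.25, 3.00 and 6.87 in CIA+THz. The groups overlapped in every comparison, with the lowest CIA library below the highest Ctrl library. In CIA against Ctrl the log2 fold change was 0.83 (SE 0.34, unadjusted p = 0.0454, limma with Benjamini-Hochberg adjusted p = 0.278). That call was lost without Ctrl replicate 2 (0.88), without Ctrl replicate 3 (0.51), without CIA replicate 1 (0.81) and without CIA replicate 3 (0.67), where the unadjusted p exceeded 0.05. CIA+THz against CIA gave -0.24, with a 95% interval from -1.11 to 0.64. Against Ctrl it gave 0.59, which became 0.99 and passed the criterion without CIA+THz replicate 2.

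Fcer1a and Ms4a2 encode the alpha and beta chains of FcεRI, the first of which holds IgE while the second amplifies the signal. Fcer1a lies on chr1:173221284-173227214 (GRCm38, minus strand) with 5 exons. It had 2.91, 2.27 and 2.69 rescaled FPKM in Ctrl, 2.08, 2.13 and 3.23 in CIA, and 4.12, 4.20 and 4.37 in CIA+THz. All 3 CIA+THz libraries were above all 6 others, and Ctrl and CIA overlapped. The log2 fold change was 0.77 in CIA+THz against CIA (SE 0.23, unadjusted p = 0.0128, limma with Benjamini-Hochberg adjusted p = 0.265). It was 0.68 in CIA+THz against Ctrl (SE 0.20, unadjusted p = 0.0115, limma with Benjamini-Hochberg adjusted p = 0.165), and -0.10 in CIA against Ctrl, with a 95% interval from -0.78 to 0.59. The call against CIA was lost without CIA replicate 1 (0.67, just under the limit), and that against Ctrl without Ctrl replicate 2 (0.58) or CIA+THz replicate 3 (0.65).

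Ms4a2 lies on chr19:11615523-11623719 (GRCm38, minus strand) with 6 exons. It had 30.8, 34.2 and 21.4 rescaled FPKM in Ctrl, 28.2, 13.7 and 16.9 in CIA, and 26.9, 23.3 and 25.6 in CIA+THz. CIA replicate 1 stood near the Ctrl level and the other CIA libraries below all of the rest. The log2 fold change was -0.59 in CIA against Ctrl (95% interval -1.28 to 0.10) and 0.43 in CIA+THz against CIA (95% interval -0.18 to 1.03), and neither passed the criterion. CIA+THz against Ctrl gave -0.17 (95% interval -0.59 to 0.26). Without CIA replicate 1 the first 2 values were -0.89 and 0.72, and both then passed. The gamma chain, Fcer1g, serves other Fc receptors of myeloid cells as well and was more abundant, at 412 ± 57.9 rescaled FPKM for Ctrl, 578 ± 60.0 for CIA and 404 ± 25.8 for CIA+THz (SD, n = 3). Its log2 fold change was 0.49 in CIA against Ctrl and -0.51 in CIA+THz against CIA, both under the fold limit. Thus in CIA+THz against CIA the log2 fold changes of the alpha and gamma chains had opposite signs, and the groups did not overlap for either.

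Hdc lies on chr2:126593667-126619299 (GRCm38, minus strand) with 8 exons. It had 737, 732 and 551 rescaled FPKM in Ctrl, 496, 697 and 526 in CIA, and 474, 426 and 377 in CIA+THz. After rescaling, all 3 CIA+THz libraries were below all 6 others, and Ctrl and CIA overlapped. The log2 fold change was -0.66 in CIA+THz against Ctrl (SE 0.16, unadjusted p = 0.00374, limma with Benjamini-Hochberg adjusted p = 0.130), at the fold limit but not past it. It was -0.42 in CIA+THz against CIA (SE 0.16, unadjusted p = 0.0356, limma with Benjamini-Hochberg adjusted p = 0.344) and -0.24 in CIA against Ctrl, with a 95% interval from -0.68 to 0.21. Against Ctrl it passed the criterion without Ctrl replicate 3 (-0.79) or without CIA+THz replicate 1 (-0.74). In FPKM as deposited, CIA+THz (588, 487 and 414) overlapped both CIA (451, 675 and 522) and Ctrl (677, 621 and 583). The log2 fold change of CIA+THz was then -0.35 against Ctrl and -0.14 against CIA.

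Hdc is expressed by neutrophils and immature myeloid cells as well as by basophils and mast cells, and 11 neutrophil genes were therefore read beside it. In CIA+THz against CIA all 11 had a log2 fold change below 0, of which 1 was above 0 in FPKM as deposited. After rescaling 4 were called lower, Retnlg, Camp, Ltf and Ngp, against 1.6% of all genes. The summed neutrophil genes were 12670 to 21398 rescaled FPKM in Ctrl, 14756 to 19436 in CIA and 10843 to 12320 in CIA+THz, with none of them listed at 0 throughout. In FPKM as deposited the sums were 13385 to 18130 in Ctrl, 13416 to 18838 in CIA and 11911 to 15276 in CIA+THz. All 3 groups then overlapped. After the values of Hdc had been seen, its likeness to these genes was described by Pearson's r of log2 levels over the 9 libraries. The median r was 0.836 over the 11 neutrophil genes, from -0.42 to 0.948. The highest were Retnlg, an abundant resistin-like granulocyte protein (0.948), and Lcn2, a neutrophil granule protein (0.947). Camp (-0.42), Ltf (-0.31) and Ngp (-0.0853), which were among those called, had r below 0 with Hdc. In CIA against Ctrl their log2 fold changes were 4.86, 4.08 and 3.02, against -0.24 for Hdc. With the other 5 basophil genes r lay between -0.72 and 0.185. The points share their library and its scaling factor, and the part of neutrophil RNA in the Hdc values was not tested. Alas2, the erythroid gene, also stood apart in CIA+THz, at 11.4% to 14.0% of the summed FPKM against 16.3% to 16.7% in CIA and 14.4% to 16.6% in Ctrl.

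Gata2 encodes a transcription factor needed by early progenitors and by basophils and mast cells. It lies on chr6:88193891-88207032 (GRCm38, plus strand) with 6 exons. Its level was 13.1, 16.2 and 10.4 rescaled FPKM in Ctrl, 8.52, 9.54 and 7.24 in CIA, and 13.5, 12.2 and 11.8 in CIA+THz. As for Cpa3, all 3 CIA libraries were below all 6 others. limma gave a log2 fold change of -0.63 in CIA against Ctrl (SE 0.21, unadjusted p = 0.0190, limma with Benjamini-Hochberg adjusted p = 0.204) and 0.57 in CIA+THz against CIA (SE 0.14, unadjusted p = 0.00593, limma with Benjamini-Hochberg adjusted p = 0.236). Both were under the fold limit. CIA+THz against Ctrl gave -0.06 (95% interval -0.48 to 0.36). Without Ctrl replicate 3 (-0.79) or without CIA replicate 2 (-0.72), the difference between CIA and Ctrl passed the criterion. Without Hdc, the 5 other basophil genes summed to 59.4, 63.3 and 43.3 rescaled FPKM in Ctrl, 49.8, 33.6 and 39.1 in CIA, and 59.5, 49.3 and 56.3 in CIA+THz. The ranges of these sums overlapped in all comparisons, and Ms4a2 was the largest part of each.

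Of the eosinophil surface genes, Siglecf encodes the sialic acid-binding lectin Siglec-F and lies on chr7:43351341-43359531 (GRCm38, plus strand) with 9 exons. It had 6.48, 6.23 and 8.98 rescaled FPKM in Ctrl, 7.38, 8.59 and 6.46 in CIA, and 6.66, 7.31 and 6.02 in CIA+THz. The 3 groups overlapped. Its log2 fold change was 0.06 in CIA against Ctrl (95% interval -0.45 to 0.56) and -0.16 in CIA+THz against CIA (95% interval -0.55 to 0.23). CIA+THz against Ctrl gave -0.10 (95% interval -0.55 to 0.35).

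Ccr3 encodes the receptor for eotaxins on eosinophils and basophils and lies on chr9:124021972-124031689 (GRCm38, plus strand) with 2 exons. It had 8.62, 6.77 and 8.08 rescaled FPKM in Ctrl, 9.42, 9.19 and 6.46 in CIA, and 9.59, 10.6 and 11.8 in CIA+THz. All 3 CIA+THz libraries were above all 6 others, though the lowest exceeded the highest CIA library by little. Its log2 fold change was 0.44 in CIA+THz against Ctrl (SE 0.16, unadjusted p = 0.0249, limma with Benjamini-Hochberg adjusted p = 0.211) and 0.36 in CIA+THz against CIA (95% interval -0.08 to 0.80), and neither passed the criterion. In CIA against Ctrl it was 0.08 (95% interval -0.41 to 0.57). Siglecf and Ccr3 thus did not share the order of their groups, and their ratio within a library was 0.752 to 1.11 in Ctrl, 0.783 to 1.00 in CIA and 0.508 to 0.694 in CIA+THz.

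The granule genes were at the lower end of what the files list. Prg2, which encodes major basic protein, lies on chr2:84980461-84983632 (GRCm38, plus strand) and had 0, 0 and 0.179 rescaled FPKM in Ctrl, 0, 0.529 and 0.494 in CIA, and 0.181, 0 and 0.342 in CIA+THz. Its comparisons gave unadjusted p-values of 0.205, 0.578 and 0.389 by limma, in CIA against Ctrl, CIA+THz against CIA and CIA+THz against Ctrl. Without CIA replicate 1, which is listed at 0, the first passed the criterion. Epx, which encodes eosinophil peroxidase, lies on chr11:87864000-87875536 (GRCm38, minus strand) and was listed above 0 in 1 library of each group, at 0.282 for Ctrl, 0.400 for CIA and 0.174 for CIA+THz. It was not tested. A value of 0 in FPKM may be an absence of reads or a failed estimate.

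Ratios of genes within a library do not depend on the scaling. Hdc over Cpa3 was 83.8 to 107 in Ctrl, 110 to 214 in CIA and 49.4 to 63.8 in CIA+THz, with no overlap between any groups. Hdc over Ms4a2 was 21.4 to 25.7 in Ctrl, 17.6 to 50.7 in CIA and 14.7 to 18.3 in CIA+THz, so that CIA overlapped both of the others. Ms4a2 over Cpa3 was 3.26 to 5.02 in Ctrl, 4.22 to 6.24 in CIA and 3.36 to 3.48 in CIA+THz, so that Ctrl overlapped both of the others. Gata2 over Cpa3 was 1.58 to 2.38, 1.88 to 2.93 and 1.55 to 1.83 in the same order. Ccr3 over Cpa3 was 0.993 to 1.228 in Ctrl, 1.69 to 2.82 in CIA and 1.235 to 1.58 in CIA+THz. It too separated all 3 groups, with little room between Ctrl and CIA+THz. All 3 CIA libraries were lowest for Cpa3, so ratios over Cpa3 are raised in CIA by those same values. The share of other gene pairs that separate the groups was not computed.

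**Figure D3:**
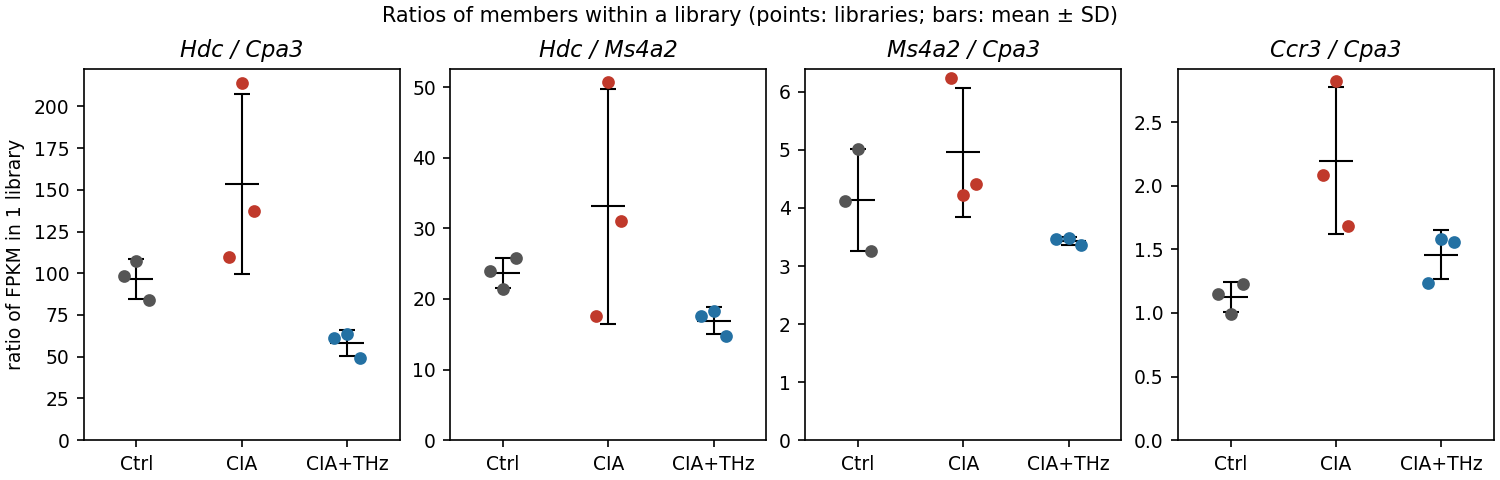
Ratio of the FPKM of pairs of genes within a library on the y axis, from 0, for the Ctrl, CIA and CIA+THz libraries. Points are libraries and bars give the mean ± SD of 3 libraries. Hdc over Cpa3 lies at 49.4 to 63.8 in CIA+THz, below all Ctrl and CIA libraries, while Ms4a2 over Cpa3 overlaps between Ctrl and each of the others. For Hdc over Ms4a2, CIA overlaps each of the others.

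Base composition moved with the comparisons. Among the 98.6% of genes tested that have a transcript GC value, 4 groups of equal size were formed by GC. The group with the lowest GC had a median log2 fold change of -0.25 in CIA against Ctrl and the one with the highest GC 0.19. The same groups had 0.15 and -0.07 in CIA+THz against CIA. Ms4a2 (37.6% GC), Ccr3 (39.1%), Cpa3 (41.3%) and Fcer1a (43.1%) lie in the lowest group, and Gata2 (58.2%) in the highest. With the GC trend removed from each library, an alternative chosen after seeing the data, Cpa3 was at -0.58 in CIA against Ctrl and no longer passed the fold limit, but still passed in CIA+THz against CIA at 0.77. Gata2 moved the other way and passed in both, at -0.86 and 0.68. Ms4a2 moved from -0.59 to -0.26 in CIA against Ctrl and from 0.43 to 0.24 in CIA+THz against CIA, and passed in neither. Fcer1a was at 0.65 in CIA+THz against CIA, under the fold limit, and at 0.74 in CIA+THz against Ctrl, where it passed. Hdc passed in CIA+THz against Ctrl at -0.67. The 1 T cell gene called in CIA+THz against CIA, Cd28, was at 0.51 and no longer passed.

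**Figure D4:**
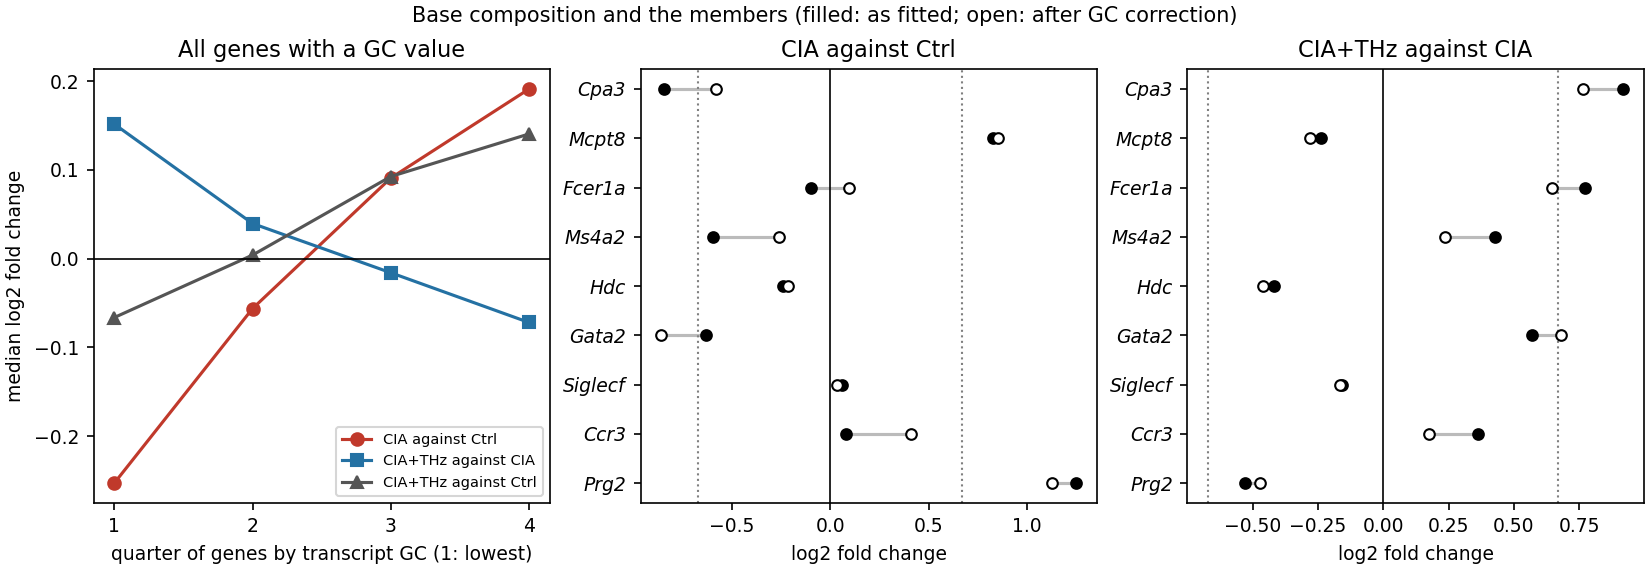
Left, median log2 fold change on the y axis for 4 equal groups of genes by transcript GC on the x axis, in the 3 pairwise comparisons. Middle and right, log2 fold change of the 9 genes tested on the x axis as fitted (filled) and after GC correction (open), with dotted lines at 0.67 in either direction. Cpa3 moves from -0.84 to -0.58 and Gata2 from -0.63 to -0.86 in CIA against Ctrl.

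Scaling mattered for comparisons with CIA+THz. The rescaling factors ran from 0.847 to 1.24, and they shifted the median gene by 0.28 (log2) in CIA+THz against CIA and by 0.31 in CIA+THz against Ctrl. In FPKM as deposited, CIA+THz against CIA called 1133 genes higher and 66 lower, in place of 363 and 198 after rescaling. Against Ctrl the numbers were 1600 and 120 in place of 574 and 401. As deposited, 4 of the 9 genes were called higher in CIA+THz against CIA, with Gata2 (0.84) and Ms4a2 (0.70) added to Cpa3 and Fcer1a, and the signs of Mcpt8 and Siglecf turned. Hdc kept its sign there, at -0.14, but its CIA+THz and CIA libraries then overlapped. In CIA+THz against Ctrl as deposited, Ccr3 (0.75) passed beside Fcer1a, and the signs of Gata2, Ms4a2 and Siglecf turned.

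A wider list of 12 other genes that basophils express or secrete, chosen with the members, had 10 genes in the test. Cd200r3, Hgf and Il6 were called higher in CIA+THz against CIA, where 2.94% of all genes were, and none lower. Of the 10, 6 had a log2 fold change above 0 and 4 below, with a list median of 0.40. The lowest was that of Csf1, a growth factor of monocytes and macrophages, which had -0.58, under the fold limit, with 72.2 to 91.3 rescaled FPKM in CIA and 44.1 to 60.2 in CIA+THz and no overlap. Csf1 and Il18r1 (-0.29) were abundant, and the summed list had a mean of 158 rescaled FPKM in CIA and 138 in CIA+THz. In FPKM as deposited the sum ran the other way, with a mean of 151 in CIA and 160 in CIA+THz. Csf1 then overlapped by little, with 66.8 as the lowest CIA library and 67.1 as the highest CIA+THz library. Cd200r3 had 5.13, 9.33 and 5.66 rescaled FPKM in Ctrl, 3.78, 3.52 and 5.66 in CIA, and 8.76, 7.56 and 7.84 in CIA+THz, and its log2 fold change was 0.91 (SE 0.21, unadjusted p = 0.00399, limma with Benjamini-Hochberg adjusted p = 0.213). All CIA+THz libraries of Cd200r3 were above all CIA libraries, as for Cpa3 and Fcer1a and for 9.38% of all genes. Hgf, a growth factor with many sources, had 9.35, 9.14 and 5.48 in Ctrl, 4.77, 1.30 and 3.18 in CIA, and 7.35, 6.24 and 5.14 in CIA+THz. Hgf fell in CIA against Ctrl (log2 fold change -1.48) and was the only one of the 10 called there. Il6, a cytokine of many cells, stayed at or below 0.449 in all 9 libraries and was listed at 0 in 2 of the CIA libraries. Il4 was listed above 0 in 1 library and Il13 in 2.

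Downstream of FcεRI, 14 signalling genes were tested, among them the kinases Lyn, Syk and Btk, and 0 passed the criterion in any of the 3 comparisons by limma, with 3 of 14 at an unadjusted p under 0.05 in each. Their median log2 fold change was 0.11 in CIA against Ctrl and -0.16 in CIA+THz against CIA, with 4 of 14 above 0. In FPKM as deposited the latter turned to 0.12, with 11 of 14 above 0. These genes serve many blood cells. Of 11 genes of histamine and lipid mediators, 9 were tested. Hpgds, the hematopoietic prostaglandin D synthase, was called lower in CIA against Ctrl, with 0.363, 0.374 and 0.485 rescaled FPKM in Ctrl and listings of 0 in all 3 CIA libraries. Hnmt, which inactivates histamine, fell in CIA+THz against Ctrl (log2 fold change -1.06), from 8.50 ± 1.51 to 4.05 ± 1.06 rescaled FPKM (SD, n = 3).

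Among 12 growth and activating cytokines and their receptors, 9 were tested. Il7r, a receptor chain of lymphocytes that also pairs with the receptor for TSLP, fell in CIA against Ctrl (log2 fold change -0.87, limma with Benjamini-Hochberg adjusted p = 0.0461), and 0 of the 9 were called by limma in the other comparisons, with 2 at an unadjusted p under 0.05 in CIA+THz against CIA and 0 in CIA+THz against Ctrl. After GC correction Il7r was at -0.58 in CIA against Ctrl (limma with Benjamini-Hochberg adjusted p = 0.108), and its call was lost. Il3 and Il5 were too low to be tested. Among 6 transcription factors of the granulocyte and GATA pathways, Cebpa rose (0.94) and Runx1 fell (-0.74) in CIA against Ctrl, the call of Runx1 being lost after GC correction (-0.64), and 0 of 6 were called by limma in the other comparisons, with 2 at an unadjusted p under 0.05 in each. Of 6 ligands of CCR3, Ccl5 made up nearly all of the summed level, 28.3 to 65.4 rescaled FPKM over the 9 libraries, and the eotaxin genes Ccl11 and Ccl24 were too low to be tested.

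A list of 10 other eosinophil genes had 9 in the test, all with a fitted log2 fold change above 0 in CIA against Ctrl and a median of 0.98. Ear6 went against its group means there, with 2.95 rescaled FPKM for Ctrl and 1.97 for CIA, since 1 Ctrl library was listed at 0. Of these, Ear1 (3.47), Cebpe (2.13) and Adgre1 (1.13) rose. Ear1, an eosinophil-associated ribonuclease, had 0.476, 0.243 and 1.11 rescaled FPKM in Ctrl, 5.75, 9.97 and 5.37 in CIA, and 1.22, 4.82 and 4.07 in CIA+THz. Every CIA library was above every other library of Ear1. Near-identical Ear genes can share reads, so its value is uncertain. Adgre1 encodes F4/80, which monocytes and macrophages carry, and Cebpe encodes a factor of granulocyte precursors at large. Monocyte genes moved alongside: 7 of 7 were higher and 4 called, with summed levels of 545 to 595 rescaled FPKM in Ctrl, 884 to 972 in CIA and 678 to 728 in CIA+THz and none at 0 throughout. Of all genes, 4.79% were called higher in CIA against Ctrl. The part of monocytes in the list of other eosinophil genes was not tested. Il5ra, the eosinophil receptor for IL-5, had 1.01 ± 0.664 rescaled FPKM for Ctrl, 1.11 ± 0.390 for CIA and 1.10 ± 0.648 for CIA+THz (SD, n = 3). Ear1 (2.28), Ear2 (0.78) and Adgre1 (0.80) rose in CIA+THz against Ctrl. Of the 9, limma called 0 in CIA+THz against CIA, and 0 had an unadjusted p under 0.05 there. Ear1 was at -1.19 in that comparison. After GC correction it was called lower, at -1.30 (unadjusted p = 0.0313, limma with Benjamini-Hochberg adjusted p = 0.354).

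Likeness over the 9 libraries was described for the mean of the standardised basophil and eosinophil genes, by Pearson's r of log2 levels among 9740 genes with a mean of at least 1 rescaled FPKM. The genes most like the basophil mean were Lypla1 (0.932), Oxr1 (0.929), Slain1 (0.929), Kbtbd2 (0.909) and Prdm10 (0.896). Those most like the mean of Siglecf, Ccr3 and Prg2 were Chd8 (0.939), Il12rb1 (0.938), Pou6f1 (0.931), Uck1 (0.922) and Tmem115 (0.912). None of these 10 belongs to the lists above, and all points share the libraries and their factors.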

How the data were processed

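Blood RNA libraries were prepared by the authors with the TruSeq RNA kit and sequenced as paired ends. The authors deposited FPKM for 20926 genes, 1 column per library, and read counts were not used here. Per the labels, the submitters' processing notes name bcl2fastq 2.0, HISAT2, StringTie, DESeq2 and mm10 without their roles. The annotation, strand setting and filters are not given in the sources used here. No whole-read steps were found in the FPKM, so depth and counting error are unknown.

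FPKM were divided, library by library, by a median-of-ratios factor computed from 10312 genes detected in every library, and log2(rescaled FPKM + 0.1) was tested for 12366 genes with a mean of at least 0.1, in R 4.3.3 with limma 3.58.1 (trend on the mean). A fold change on this scale understates that of low genes. Pairs of groups were fitted on their 6 libraries, and a gene was called at an unadjusted p under 0.05 if its log2 fold change also exceeded 0.67 in size, which follows the study. The F-test of the 3 groups used the p alone. Adjustment ran over all genes tested. All tests were two-sided. For any single gene an exact permutation of 3 against 3 libraries cannot give a p below 0.1.

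Coordinates, exons and transcript GC were taken from GENCODE on GRCm38 by symbol and promoters from RefSeq on GRCm38.p6. Exon counts and GC are those of the longest transcript of each symbol. Named genes were the 10 members, genes of the other lists that passed the criterion or were abundant, and the 5 genes most like each group mean. Il3, Il4, Il5, Il5ra, Il13, Lyn, Syk, Btk, Ccl11, Ccl24, Kit, Mcpt1, Tpsab1, Mrgprb2 and Ptprc were named after their values were seen. The members and lists were chosen with earlier results of these data known. The scripts were tested on simulated data. Alternatives were no rescaling, upper-quartile scaling, pseudocounts of 1 and 0.01, other filters, no trend, all 9 libraries in 1 fit, the replicate number as a block, adjusted p, leaving out each library and, chosen after seeing the data, GC correction.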

Additional observations from a re-analysis of the deposited data

How the results depend on the processing

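Precision is limited by 3 libraries a group and by an unknown depth. Of the members' calls, those of Cpa3 in CIA against Ctrl and in CIA+THz against CIA held without any 1 library, and the former was lost under GC correction. With the adjusted p under 0.05 as criterion, CIA against Ctrl kept 19 genes, CIA+THz against CIA 0, CIA+THz against Ctrl 13 and the 3 groups together 313, and the members called were 0 in each pair and 1 across the 3 groups. In FPKM as deposited, 1199 genes and 4 members were called in CIA+THz against CIA and 1720 genes and 2 members in CIA+THz against Ctrl. There the log2 fold change of Mcpt8 was 0.0327 and that of Siglecf 0.11 in CIA+THz against CIA, and in CIA+THz against Ctrl Gata2 had 0.25, Ms4a2 0.14 and Siglecf 0.20, all with the sign turned. Rescaling by construction removes the shift of the median gene. With a pseudocount of 1, 283 genes and 1 member were called in CIA+THz against CIA and 0 members in CIA+THz against Ctrl. In CIA against Ctrl, 1 member was called with no filter, with no trend and with all 9 libraries in 1 fit, the call of Mcpt8 being lost. GC correction, chosen after seeing the data, called 2 members in CIA+THz against Ctrl and turned Fcer1a to 0.10 in CIA against Ctrl.

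Leaving out 1 library at a time gave 1 to 3 members in CIA against Ctrl, and 0 to 2 members and 724 to 1487 genes in CIA+THz against Ctrl, the highest count without Ctrl replicate 3. In those fits the log2 fold change changed sign for Ccr3 (-0.0178 to 0.25), Fcer1a (-0.30 to 0.0103) and Siglecf (-0.0456 to 0.22) in CIA against Ctrl. It did so for Mcpt8 (-0.46 to 0.16) and Prg2 (-1.40 to 0.0751) in CIA+THz against CIA, and for Gata2 (-0.22 to 0.10) and Siglecf (-0.20 to 0.0629) in CIA+THz against Ctrl. None of these was called in the comparison concerned. Where not stated, the cause was not tested.

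The groups share replicate numbers in the labels but not mice. Deviations from the group mean had a correlation of -0.0517 to 0.0309 in 9 pairs of the same number and of -0.034 to 0.0561 in 18 pairs of different numbers, so the numbers did not pair the libraries. With the replicate block, 1073, 506 and 967 genes were called for CIA against Ctrl, for CIA+THz against CIA and for CIA+THz against Ctrl, and 1, 2 and 1 members, the call of Mcpt8 in CIA against Ctrl being lost.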
